A study of Mus musculus with 8 samples.

Results

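The cytosolic ribosome is built from a small and a large subunit, each an assembly of ribosomal RNA and proteins encoded by genes scattered over the genome, with symbols that begin with Rps for the small and Rpl for the large subunit. The transcripts of these genes are among the most abundant in dividing cells, and the proteins are made in matched amounts because a ribosome needs each of them. Ribosome synthesis is raised in growing progenitors by factors such as MYC and the mTOR pathway, and it is a large part of what a cell that prepares to divide makes.

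Members were taken by symbol from the deposited tables: Rpl or Rps followed by a digit, Rplp0 to Rplp2, or Rpsa, without the Rps6k kinases and without symbols that end as pseudogenes. This gave 86 of the 22878 symbols in the tables, 34 of the small and 52 of the large subunit. A symbol with several transcripts, as 10 of these had, was represented by the row with most reads on average. The rule also takes Rps19bp1, whose product binds a ribosomal protein and is not one, 7 paralogues (Rpl3l, Rpl7l1, Rpl10l, Rpl22l1, Rpl36al, Rpl39l and Rps27l), and Rps4y2, an entry that RefSeq now names Rps4l and lists as a transcribed pseudogene (NR_003634). Fau and Gnb2l1, which encode ribosomal proteins under other names, fall outside it and are given with the related lists. The values below are deposited RPKM (reads scaled by transcript length and library total), which allow levels to be set side by side between genes.

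RNA of 4 progenitor populations from the marrow of C57BL/6 mice was sequenced, with 2 libraries each. All were sorted from live cells that lacked lineage markers and bore CD127 and Kit. Common lymphoid progenitors (CLP) also had Flt3 and Sca-1 and no integrin α4β7. Common helper-like innate lymphoid progenitors (ChILP) had that integrin but neither Flt3 nor ST2. PD-1+ cells, labelled as non-LTi innate lymphoid progenitors (LTi, lymphoid tissue inducer), and CCR6+ cells, labelled as LTi progenitors, split that gate, each lacking the other's receptor. CLP and ChILP were enriched by lineage depletion, but PD-1+ and CCR6+ cells by magnetic capture with an antibody to integrin α4β7, so in any comparison of the 2 captured with the 2 depleted populations the population and the route of enrichment cannot be told apart. The sources used here give no age, sex or number of mice. Nothing says that replicate libraries were made from different mice, so p-values measure only the spread between libraries, which may be technical.

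Reads on genes numbered 7685191 to 13997891 per library. The sort genes followed the labels: Flt3 stood at 92.1 RPKM or more in CLP and at 10.4 or less elsewhere, Pdcd1 (PD-1) at 181 and 36.3 in the PD-1+ pair against 0 and 1.10 in the CCR6+ pair, and Ccr6 at 0 and 8.11 against 84.2 and 23.6. In each captured group replicate 2 had the lower level of its own sort gene. For Pdcd1, PD-1+ replicate 2 lay below both ChILP libraries (70.9 and 92.9 RPKM), which were not sorted on PD-1. Its Ccr6 level was near that of ChILP replicate 2 (8.21 RPKM). Il7r, which encodes CD127 of the shared gate, stood at 45.2 and 13.5 RPKM in the PD-1+ pair and 27.5 and 12.2 in the CCR6+ pair. The CLP and ChILP libraries had 19.2 to 35.4 RPKM of Il7r. Marker transcripts of other marrow cells set the captured apart from the depleted libraries. The 12 erythroid markers summed to 56330 to 81320 RPKM in the PD-1+ and CCR6+ libraries and to 3388 to 14350 in the CLP and ChILP libraries, with 8 of 12 higher and 1 lower by edgeR's quasi-likelihood test at an adjusted p under 0.05. For mature neutrophils and monocytes, 12 markers summed to 16230 to 35520 against 1186 to 6759 RPKM, with 8 of 12 higher. The 6 markers of early myeloid cells summed to 784 to 1832 against 7025 to 10010 RPKM, with 5 of 6 lower. B cell markers summed to 239 to 334 against 25.2 to 181 RPKM (4 of 8 higher), and plasma cell markers to 373 to 805 against 155 to 223 RPKM (1 of 5 higher). Plasmacytoid dendritic markers overlapped, at 572 to 883 and 372 to 1072 RPKM, with 4 of 6 higher. No marker of these lists was without a read on either side. In a bulk library, fewer cells of a type and less RNA per cell cannot be told apart.

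Ribosomal protein transcripts took a larger share of the reads in the CLP and ChILP libraries than in the PD-1+ and CCR6+ libraries. The share was 2.22% and 1.95% in the CLP libraries and 1.79% and 2.42% in the ChILP libraries. The PD-1+ libraries had 1.31% and 0.974%, and the CCR6+ libraries 1.09% and 0.865%. The lowest depleted library lay above the highest captured library, while ChILP replicate 1 lay below and ChILP replicate 2 above both CLP libraries. By group the share was 2.08% ± 0.197 in CLP, 2.11% ± 0.449 in ChILP, 1.14% ± 0.235 in PD-1+ and 0.976% ± 0.157 among CCR6+ libraries (SD, n = 2 each). Wilson 95% intervals spanned 2.414% to 2.432% for ChILP replicate 2 and 0.860% to 0.871% for CCR6+ replicate 2. They cover counting error only and are far narrower than the gap between replicates.

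The mean share was 2.10% ± 0.283 in the depleted and 1.06% ± 0.188 in the captured libraries (SD, n = 4 each), a ratio of 1.98. With the reads of the erythroid and the mature neutrophil and monocyte markers taken out of the totals, the ratio was 1.83. The part of those cells' other transcripts was not tested. Both subunits took part: small-subunit symbols held 0.781% to 1.05% of reads in the depleted and 0.387% to 0.577% in the captured libraries, and large-subunit symbols 1.01% to 1.37% and 0.478% to 0.728%.

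**Figure D1:**
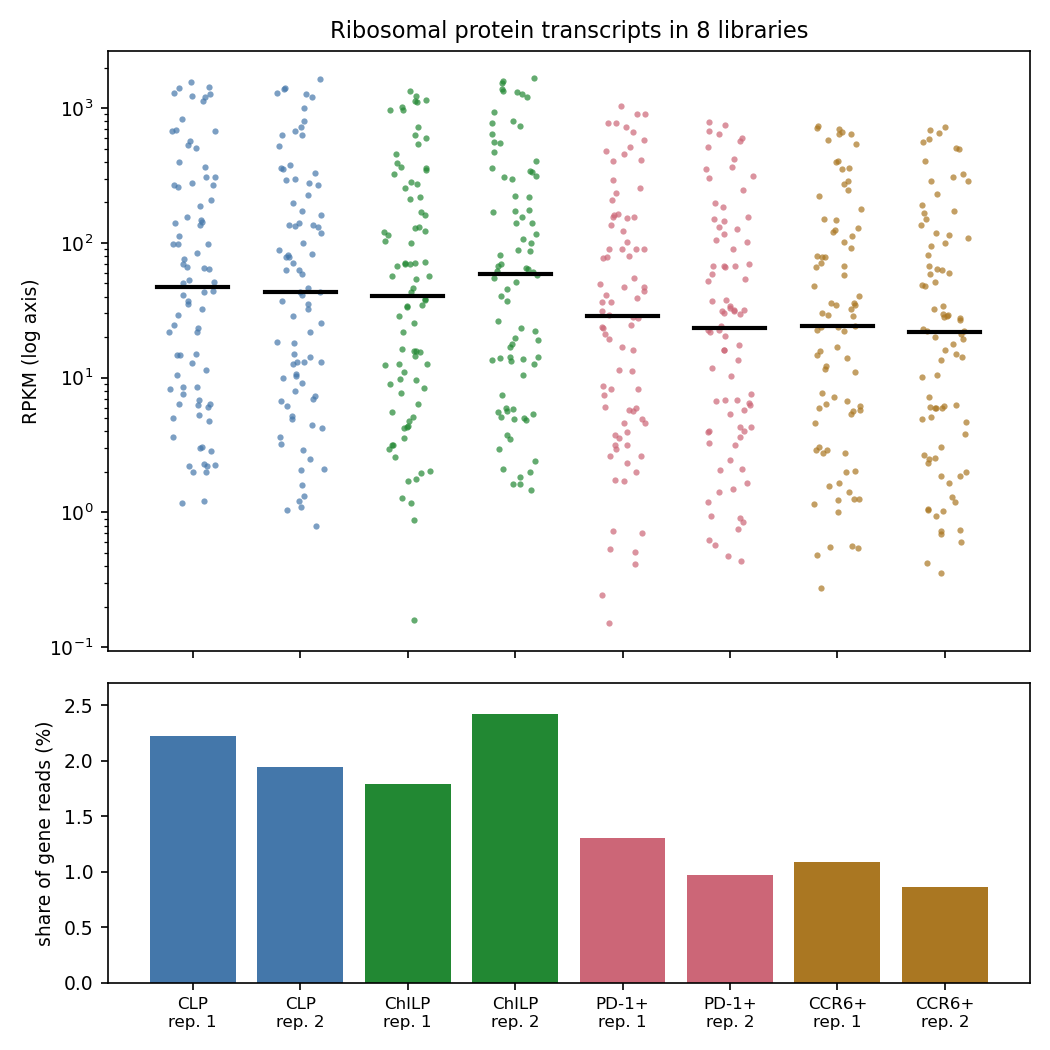
RPKM of every ribosomal protein gene with a read (points, log axis; bars mark the median over all 86 genes) and the share of gene reads these genes took (columns, %) in each of the 8 libraries, coloured by group. The medians of the depleted libraries lay between 40.6 and 59.0 RPKM, and those of the captured libraries between 21.7 and 28.8 RPKM.

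Levels differed widely between the 86 genes. Mean RPKM over the 8 libraries ran from 0 to 1178, with a median of 34.3, and 29 genes stood above 100 RPKM while 29 stood below 10. The genes below 10 RPKM include the paralogues Rpl10l (0 RPKM), Rpl3l and Rpl39l. The 10 genes with most reads held 65.2% of all ribosomal protein reads. Rpl32, at 1178 RPKM, was the highest, and Rps9, Rps14 and Rplp0 were among the 5 highest. Rpsa, Rpl11, Rpl23a and Rpl19, which encode core ribosomal proteins as well, had means over the 8 libraries from 0.951 RPKM (Rpl23a) to 3.82 RPKM (Rpsa).

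Ribosomal protein genes have many processed pseudogenes, retrocopied from the spliced transcript, so a 50-base read of the gene can match elsewhere. The sources used here do not say how reads with several matches were counted. The coding part of each transcript (GENCODE vM21, build GRCm38) was therefore cut into overlapping words of 50 bases, the read length, and each word was looked up in the transcripts of all other genes. For Rps27 and Rps4y2, whose rows are non-coding, the whole transcript was used. In 27 genes every word was found in another gene, and these had a median level of 5.37 RPKM, with 20 of them under 10 RPKM. In 41 genes 50% to under 100% of the words were shared, and the median was 63.4 RPKM. The 18 genes with fewer than 50% of words shared had a median of 329 RPKM. Spearman's rho between level and percent shared was -0.60 over the 86 genes, given as a description, since the genes share their libraries.

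The following 50-base stretches show the contrast between heavily and little shared genes. They are coding bases from the gene's transcript, all in lower case, with the first occurring in 44 other genes, the second in 17 and the last in 1.
Rpl21: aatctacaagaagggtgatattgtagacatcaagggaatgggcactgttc
Rpl23a: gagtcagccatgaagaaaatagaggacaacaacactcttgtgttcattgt
Rpl4: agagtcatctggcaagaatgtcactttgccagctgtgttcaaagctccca
Rpl21, on chromosome 5, shared 100% of its words with 82 other genes between them and stood at 2.94 RPKM on average in the depleted libraries. Rpl23a, on chromosome 11, shared 100% and stood at 1.30 RPKM. Rpl4, on chromosome 9, shared 20.2% and stood at 1137 RPKM.

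The relation had exceptions on both sides. Rpl41, which encodes a very short peptide, shared 100% of its words and stood at 313 RPKM over all libraries. Its coding part holds only 29 words, and the rest of its transcript of 449 bases was not looked up. Rps2 shared 84.2% of its words with 71 other genes and reached 403 RPKM in ChILP replicate 2. Rpl3l and Rpl39l shared none and lay below 1.5 RPKM in every library. Levels of the heavily shared genes are therefore uncertain, and so is a comparison of levels between genes that differ in this respect.

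**Figure D2:**
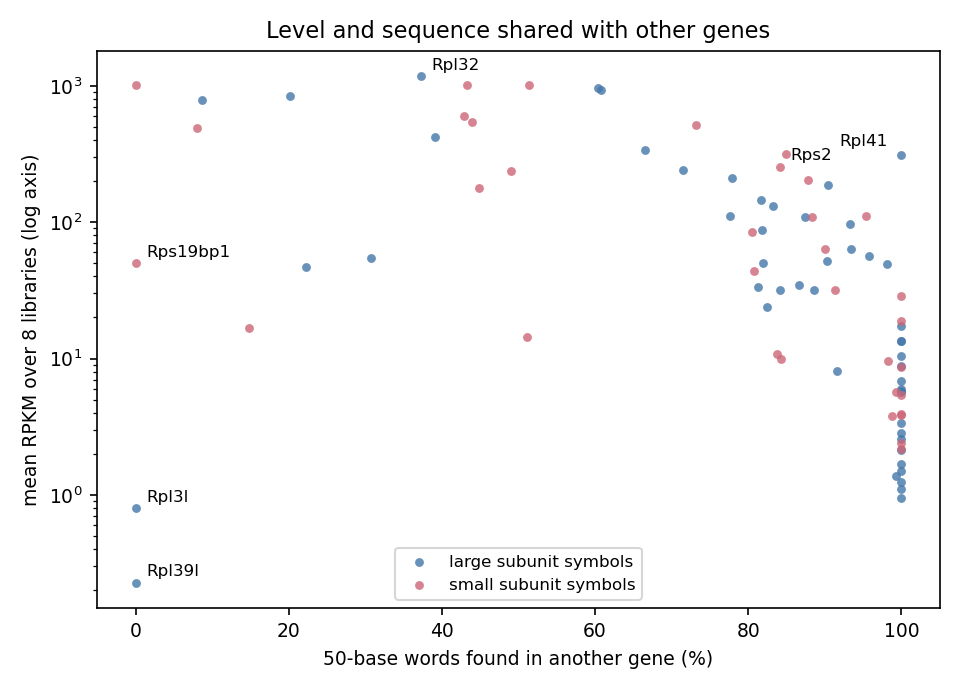
Mean RPKM over the 8 libraries (log axis) against the percent of 50-base words found in another gene, 1 point per gene with a read, coloured by subunit. Words come from the coding part, or from the whole transcript for Rps27 and Rps4y2. Genes with every word shared sit at the right, with 1 of 27 above 30 RPKM (Rpl41), while 11 of the 18 genes with under 50% of words shared stand above 100 RPKM.

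The study's first comparison, ChILP against CLP, addresses the change from the common progenitor to the committed one. None of the 85 ribosomal protein genes tested passed edgeR's quasi-likelihood test at an adjusted p under 0.05 (0 of 85; over all 13619 genes tested 3, or 0.022%, passed), and the lowest adjusted p among them was 0.977. At an unadjusted p under 0.05 there were 0 of these genes and 792 of all genes, and DESeq2 called 0 of these genes and 263 of all genes. Their median log2 fold change was 0.11 against 0.05 for all genes, with 59 genes above and 26 below 0. Without ChILP replicate 2, the library with the largest ribosomal share, the median was -0.09.

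The abundant Rpl4 showed how near the groups lay. Rpl4, a large-subunit protein of the exit tunnel, stood at 1120 and 1203 RPKM in the CLP and at 1016 and 1207 in ChILP (means 1162 ± 58.4 and 1112 ± 135, SD, n = 2). The range of CLP lay within that of ChILP.

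Deposited RPKM of both ChILP libraries lay above both CLP libraries for 12 genes (14.1%, against 17% of all genes tested) and below for 4 (4.71%, against 18.6%). Rps27l was among the 12, at 306 and 270 RPKM in CLP and 350 and 343 in ChILP (log2 fold change 0.31). Rpl29 was another, with means of 66.2 ± 4.31 and 79.1 ± 13.8 RPKM (SD, n = 2 each; log2 fold change 0.31). Rpl15 was among the 4, with means of 16.4 ± 2.40 in CLP and 13.5 ± 1.10 RPKM in ChILP (log2 fold change -0.22). None of these passed the test.

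The study's second comparison, PD-1+ against CCR6+, addresses what sets the 2 branches of the ChILP gate apart. No ribosomal protein gene passed the edgeR test (0 of 85, and 0%, 0 genes, of the 13619), and the lowest adjusted p among them was 0.85. At an unadjusted p under 0.05 there were 0 of these genes and 801 of all genes. DESeq2 called 0 of these genes and 128 of all genes, and limma on log2(RPKM + 1) called 0 and 2. The median log2 fold change was 0.14 against 0.01 for all genes, with 64 of 85 above 0. Leaving out single libraries moved this median between -0.02 and 0.30.

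One library of each group was at the edge. Among the 4 captured libraries, PD-1+ replicate 1 was the highest for 60 of the 85 genes and CCR6+ replicate 2 the lowest for 61. Rpl32, a large-subunit protein, stood at 1043 and 783 RPKM in PD-1+ and at 711 and 688 among the CCR6+ libraries, so that the groups did not overlap (means 913 ± 184 and 699 ± 16.1, SD, n = 2; log2 fold change 0.31). Rpl3, which lies at the peptidyl transferase centre, stood at 47.0 and 31.3 RPKM in PD-1+ and 30.1 and 29.4 among the CCR6+ libraries. In both genes PD-1+ replicate 1 was far above the other 3 libraries, which lay near each other.

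Both PD-1+ libraries lay above both CCR6+ libraries in RPKM for 21 genes (24.7%, against 19% of all genes) and below for 3 (3.53%, against 14.2%). Rps24, mutated in some families with Diamond-Blackfan anaemia, an inherited failure of red cell production, was among the 21, with means of 33.2 ± 4.14 and 25.4 ± 4.44 RPKM (SD, n = 2 each; log2 fold change 0.32). None of the 21 passed the test.

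The PD-1+ and CCR6+ libraries were then set against the CLP and ChILP libraries, with the limit that route and population cannot be told apart. Of the 85 genes, 42 passed the edgeR test and all 42 fell in the captured libraries (49.4%, against 10.5% of all genes that fell). Over all genes 22% passed in either direction and 11.4% rose. The median log2 fold change was -0.74, with quartiles of -0.94 and -0.63, against a median of -0.08 for all genes. Of the 85 genes, 79 lay below 0. The small subunit had 18 of 34 genes called lower and a median of -0.72, and the large subunit 24 of 51 and -0.78.

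Deposited RPKM of all 4 captured libraries lay below all 4 depleted libraries for 71 genes (83.5%, against 22.5% of all genes) and above for 1, Rps27 (1.18%, against 9.05%). On TMM-scaled counts relative to library size, which take account of differences in RNA composition, 62 genes lay below (72.9%, against 14.6%) and 2 above (2.35%, against 13%). The called genes were mostly the abundant ones, with a median of 183 RPKM against 6.88 RPKM for the 43 not called. All 29 genes above 100 RPKM lay lower in the captured libraries without overlap, and 28 of them passed the test, all but Rpl41.

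The count of 42 rests on all 8 libraries. With any single library left out it was smaller. Such fits leave 1 library in a group, so only their effect sizes are given. The 42 genes all stayed lower in the captured libraries. The median log2 fold change then ran from -0.84 (without ChILP replicate 1) to -0.65 (without ChILP replicate 2). For all genes the medians in those 2 fits were -0.03 and -0.04. Limma on log2(RPKM + 1) called 71 of 84 (70 lower and Rps27 higher) and 4355 of all 12232 genes. On that scale the median of all genes also shifted to -0.30. The count was 1, with 4023 over all genes, where the ribosomal protein genes themselves set the scale. That centres them on 0 by construction. Against ChILP alone, which shares the CD127, integrin and Kit gate of the captured cells, 20 genes were called lower (6.19% of all genes were), and against CLP alone 17 (6.85%); the medians over all 85 genes were -0.79 and -0.72. In PD-1+ cells alone 12 were called lower (4.78% of all genes) and in CCR6+ cells alone 22 (6.91%), with medians over all 85 genes of -0.73 and -0.78. Both share the same CLP and ChILP libraries.

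**Figure D3:**
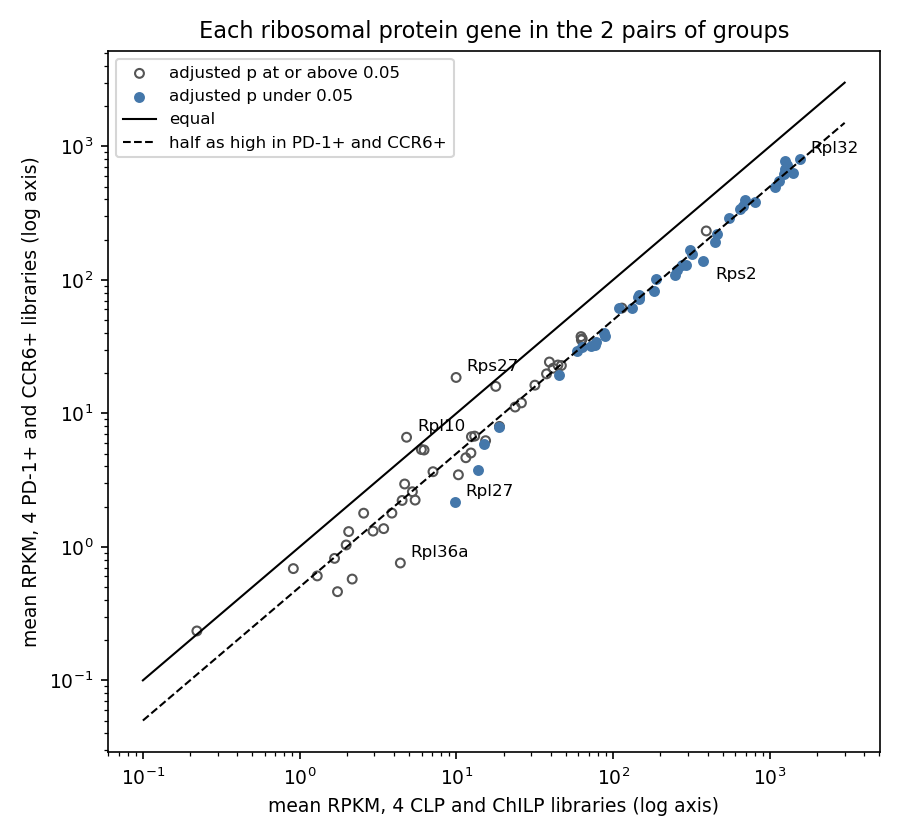
Mean RPKM of each gene over the 4 PD-1+ and CCR6+ libraries against its mean over the 4 CLP and ChILP libraries (both log axes), 1 point per gene with reads in both, filled where edgeR's adjusted p was under 0.05. The solid line marks equal levels and the dashed line a ratio of 2, along which most points lie, with Rps27, Rpl10 and the barely detected Rpl39l above the line of equality and Rpl36a and Rpl27 below the dashed line.

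On the small subunit, Rps2 had the lowest adjusted p. Rps2, a protein near the messenger RNA entry site, stood at 366 and 356 RPKM in the CLP libraries, 362 and 403 in ChILP, 157 and 131 in the PD-1+ pair and 150 and 119 in the CCR6+ pair. All captured libraries lay below all depleted ones, and the fall was larger than the spread within either side (372 ± 21.4 against 139 ± 17.4 RPKM, SD, n = 4; log2 fold change -1.15, SE 0.14, edgeR adjusted p = 0.00209). Rps18, a protein of the small-subunit head, stood at 262 and 293, 255 and 296, 155 and 127, and 124 and 114 RPKM in the same order of groups. Its mean fell from 277 ± 21.1 to 130 ± 17.3 RPKM, a log2 fold change of -0.82 (SE 0.13, adjusted p = 0.00459). Its sides did not overlap either.

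Rps9 and Rps14 had the smallest log2 fold changes among the 5 highest genes; their difference from the others was not tested. Rps9, a protein of the small-subunit body, stood at 1118 to 1339 RPKM in the depleted and 725 to 901 in the captured libraries (log2 fold change -0.41, SE 0.12, adjusted p = 0.049). Rps14, whose gene lies in the segment deleted in the human 5q- syndrome, an anaemia, stood at 1120 to 1396 and 649 to 910 RPKM (log2 fold change -0.57, adjusted p = 0.0201). Rps19, the gene most often mutated in Diamond-Blackfan anaemia, stood at 97.5 to 119 and 48.8 to 79.4 RPKM (log2 fold change -0.56, adjusted p = 0.0441). In all 3 genes the highest captured library was PD-1+ replicate 1. It lay below every depleted library.

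On the large subunit, Rpl14 and Rpl4 were among the genes with the lowest adjusted p. Rpl14 stood at 280 and 279 RPKM in the CLP libraries, 273 and 336 in ChILP, 160 and 116 in the PD-1+ pair and 130 and 108 in the CCR6+ pair (log2 fold change -0.92, SE 0.15, adjusted p = 0.00504). Rpl4 stood at 664 and 517 in the PD-1+ pair and 538 and 494 in the CCR6+ pair, against at least 1016 RPKM in the depleted ones (log2 fold change -0.77, SE 0.13, adjusted p = 0.00611). Neither gene's sides overlapped. Rpl32, the most abundant of all, fell from 1550 to 806 RPKM on average, with a log2 fold change of -0.68 (SE 0.14, adjusted p = 0.0107).

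The stalk of the large subunit, which recruits the translation factors, is made of the products of Rplp0, Rplp1 and Rplp2, and all 3 fell. Rplp0 stood at 1291 and 1268 RPKM in the CLP libraries, 1146 and 1327 in ChILP, 782 and 640 in the PD-1+ pair and 697 and 588 in the CCR6+ pair (log2 fold change -0.63, SE 0.14, adjusted p = 0.0152). Rplp1 stood at 964 to 1542 and 504 to 772 RPKM (log2 fold change -0.73, SE 0.22, adjusted p = 0.0481). Rplp2 stood at 363 to 550 and 171 to 275 RPKM (log2 fold change -0.78, SE 0.23, adjusted p = 0.0471). The sides overlapped in none of the 3. The lower limits of Rplp1 and Rplp2 in the depleted libraries came from ChILP replicate 1 and CLP replicate 2, and their larger SE goes with that wider spread. Rpsa, a small-subunit protein also known as the laminin receptor, stood at 3.64 to 5.92 and 1.99 to 4.30 RPKM, with overlap (log2 fold change -0.40, adjusted p = 0.573), and shared 98.8% of its words with other genes.

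Promoters were read for the genes because so many moved together. RefSeq (GRCm38.p6) gave promoters for 64 of the 86 symbols, 76 in all, each from 250 bases before to 50 after the start. The motif CTTTCC was found on either strand in 51.3% of them, against 26.6% of all 32851 promoters of the same length. CCGGAAG, the core of sites bound by ETS family factors, was found in 34.2% against 8.86%. TATAAA was found in 9.21% against 13.6%. Within 25 bases of the start it stood in only 3 of the 76 promoters (3.95%), against 1.5% of all. CACGTG, the E-box bound by MYC, was found in 10.5% against 7.15% of the full windows. Starts of ribosomal protein transcripts are known for a terminal oligopyrimidine tract that places their translation under mTOR. A run of at least 8 C or T bases at or near the start stood in 39.5% against 14% of all promoters. The run did not have to begin at the start, so this is not a count of such tracts. CTTTCC is made of C and T only, so it can be part of such a run. CACGTG reads the same on both strands. A match is a description of the sequence alone.

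These promoter stretches, from 60 bases before to 20 after the start and read on the gene's strand, belong to an abundant gene that fell (Rpl4, chr9:64173327-64173406), to another (Rpl13a, chr7:45128726-45128805), to the paralogue that fell (Rps27l, chr9:66946026-66946105) and to the gene that stood higher (Rps27, chr3:90213629-90213708), all in GRCm38.p6. Capitals mark CTTTCC or CCGGAAG. Rps27l has a second promoter (chr9:66946353-66946432), not shown, whose stretch holds neither motif.
Rpl4: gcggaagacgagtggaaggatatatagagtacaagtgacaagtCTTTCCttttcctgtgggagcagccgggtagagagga
Rpl13a: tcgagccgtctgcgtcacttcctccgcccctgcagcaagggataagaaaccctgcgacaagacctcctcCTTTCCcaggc
Rps27l: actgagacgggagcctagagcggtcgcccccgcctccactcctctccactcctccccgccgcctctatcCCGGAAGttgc
Rps27: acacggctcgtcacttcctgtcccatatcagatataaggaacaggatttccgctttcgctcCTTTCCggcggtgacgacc
Rpl4, Rpl13a and Rps27 hold the same motif near the start, as does Rpl15. Other stretches from the same window hold neither motif: those of Rpl22l1 and of Rplp2, Rps3, Rps9 and Rpl36al, which also fell. Within 25 bases of the start, CTTTCC stood on either strand in 17.1% of these genes' promoters against 4.68% of all. Rpl13a, which also regulates translation outside the ribosome, fell from 551 to 293 RPKM (log2 fold change -0.65, edgeR adjusted p = 0.0427). Rps27, measured on a non-coding transcript of the gene, did not fall, and its higher level did not pass the edgeR test (adjusted p = 0.0755).

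Several genes have a paralogue, and values of both are given side by side; no difference in change within a pair was tested. Rps27 and Rps27l encode near-identical zinc-finger proteins of the small subunit, and Rps27l is a target of p53. Their first 60 coding bases are shown because the pair shares no stretch as long as a read. Capitals mark the 18 bases that differ.
Rps27: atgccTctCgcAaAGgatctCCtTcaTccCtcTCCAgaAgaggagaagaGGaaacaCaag
Rps27l: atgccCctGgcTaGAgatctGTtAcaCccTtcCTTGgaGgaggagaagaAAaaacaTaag
Over the 255 coding bases 61 differed (76.1% identical), and 0 words of 50 bases were shared by the pair. Rps27l stood at 306 and 270 RPKM in the CLP libraries, 350 and 343 in ChILP, 165 and 151 in the PD-1+ pair and 147 and 166 in the CCR6+ pair, and fell (log2 fold change -0.73, SE 0.13, adjusted p = 0.00732). Rps27 stood at 6.83 and 10.2, 9.05 and 13.7, 29.3 and 15.9, and 14.8 and 14.2 RPKM in the same order. Its captured libraries lay above every depleted one, but the test was not passed (log2 fold change 1.15, SE 0.40, adjusted p = 0.0755). It did pass DESeq2's Wald test (adjusted p = 0.0215) and limma on log2(RPKM + 1) (adjusted p = 0.0333). PD-1+ replicate 1 stood apart in it. The row that the rule takes for Rps27 is a non-coding transcript of the gene (NR_033727), which shared 51.1% of its words with other genes. The coding row of Rps27 (NM_027015) stood at 1.08 to 4.87 RPKM in the depleted and 3.17 to 6.58 in the captured libraries, with overlap. The difference in level within the pair is therefore uncertain.

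Rpl36a and Rpl36al differ at 39 of 321 coding bases (87.9% identical). Capitals mark the 11 differing bases among their first 60.
Rpl36a: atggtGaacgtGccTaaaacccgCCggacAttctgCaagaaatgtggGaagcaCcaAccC
Rpl36al: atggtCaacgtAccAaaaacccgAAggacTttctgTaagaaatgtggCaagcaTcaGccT
Rpl36al, an autosomal retrocopy that kept its function, was the higher of the pair at 171 to 220 RPKM in the depleted and 90.7 to 122 in the captured libraries, and fell (log2 fold change -0.63, SE 0.16, adjusted p = 0.0277). Rpl36a, on chromosome X, stood at 3.21 to 5.56 and 0.421 to 1.15 RPKM (log2 fold change -2.21, SE 1.09, adjusted p = 0.19). Both genes lay lower in every captured library. Rpl36a shared 100% of its words with other genes, though none with Rpl36al, so the difference in level within the pair is uncertain.

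Rpl22 and Rpl22l1, whose proteins bind RNA and have opposing roles in early blood and T cell development, were at similar levels. Rpl22 stood at 84.0 and 78.4 RPKM in the CLP libraries, 57.2 and 86.4 in ChILP, 39.1 and 31.1 in the PD-1+ pair and 32.6 and 26.9 in the CCR6+ pair, and fell (log2 fold change -0.97, SE 0.18, adjusted p = 0.0076). Rpl22l1 stood at 65.6 and 43.5, 70.6 and 69.8, 44.3 and 37.5, and 34.5 and 33.9 RPKM (log2 fold change -0.46, SE 0.24, adjusted p = 0.21). CLP replicate 2 lay among the captured libraries in Rpl22l1, and no library overlapped in Rpl22.

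Rpl7 and Rpl7l1 both fell, by 0.71 on the log2 scale in each (adjusted p = 0.0263 and 0.0143), from 146 to 74.2 and from 62.9 to 31.6 RPKM on average. Rpl3 fell from 77.7 to 34.5 RPKM (log2 fold change -0.92, adjusted p = 0.00571), while Rpl3l, a form of striated muscle, had a total of 123 reads over the 8 libraries. Rps4x, the small-subunit gene on the X chromosome, fell from 88.8 to 37.8 RPKM (log2 fold change -0.96, adjusted p = 0.0107). Rps4y2 stood at 13.1 to 29.2 RPKM in the depleted and 13.5 to 19.3 in the captured libraries, with overlap (log2 fold change 0.12, adjusted p = 0.848). Rpl39 stood at 25.5 to 51.5 and 17.9 to 24.2 RPKM (log2 fold change -0.66, adjusted p = 0.241). Rpl39l and Rpl10l, paralogues known from the testis, had 24 reads in 2 of the 8 libraries and 0 reads. For Rpl10l, 3 reads over all libraries would give 0.034 RPKM. Rpl10 stood at 4.21 to 5.70 and 5.41 to 8.31 RPKM (log2 fold change 0.71, adjusted p = 0.374), with CCR6+ replicate 1 inside the range of the depleted libraries.

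**Figure D4:**
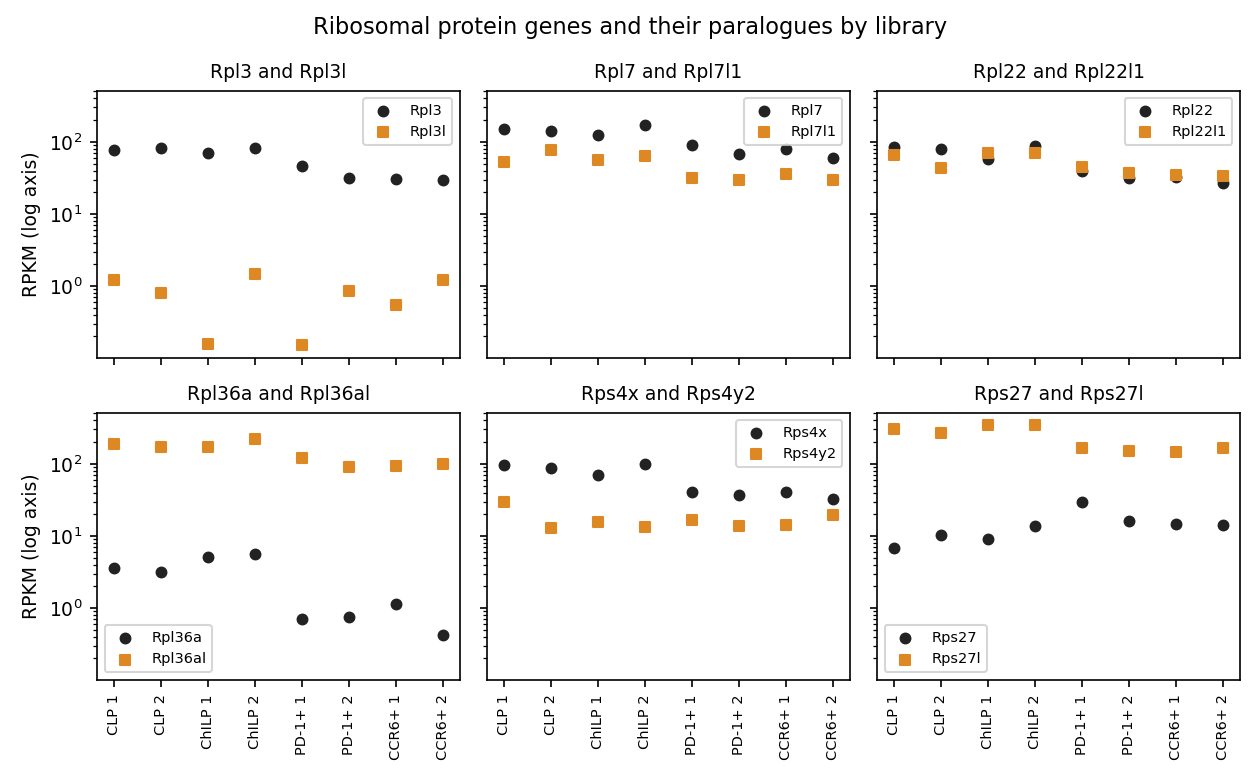
RPKM (log axis) in each library for 6 pairs of paralogues, with the gene as circles and its paralogue as squares. The paralogue was the higher member for Rps27l and Rpl36al, the pair of Rpl22 and Rpl22l1 lay close together, and Rps27 is the gene whose captured libraries lay above the depleted ones. Rps27 values are those of a non-coding transcript of the gene. The difference in level is uncertain for Rps27 and Rps27l, and for Rpl36a and Rpl36al.

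Most ribosomal protein transcripts varied little relative to each other across the 8 libraries. For the 73 genes with at least 10 reads in every library, the library's median over the genes was taken off log2 RPKM, and the SD of what was left was computed over libraries. Its median was 0.21, against 0.50 for the 10296 genes with as many reads, each relative to their own library median, and 45 of the 73 (61.6%) had an SD under 0.25, against 11.3% of those genes. These are descriptions, and precision rises with level. Pearson's r between 2 libraries over the 73 genes, also a description, was 0.974 to 0.994.

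The steadiest was Rps18, with an SD of 0.067. The least steady was Rps27, with an SD of 1.10, at log2 values of -3.34 to -2.57 relative to the library median in the depleted libraries and -1.22 to -0.60 in the captured ones. Rpl10, which joins the large subunit late in its assembly, had an SD of 0.86, at -4.22 to -3.78 in the depleted and -2.67 to -2.23 in the captured libraries. Rpl27 was arranged the other way, at -3.29 to -2.69 in the depleted and -4.79 to -3.64 in the captured libraries. Its absolute level fell from 9.75 to 2.17 RPKM, a log2 fold change of -1.99 (SE 0.59, adjusted p = 0.0467). Rpl10 and Rpl27 shared 100% of their words with other genes and Rps13 99.3%, so the source of their reads is uncertain. The Rps27 values are those of a non-coding transcript of the gene, which shared 51.1% of its words, so the same holds for it.

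Among ribosomal proteins under other symbols, Gnb2l1, which encodes the signalling scaffold RACK1 of the small subunit, had means of 681 ± 76.0 and 275 ± 26.0 RPKM and fell (SD, n = 4; log2 fold change -1.04, SE 0.14, adjusted p = 0.00288). Fau, a ribosomal protein fused to a ubiquitin-like domain, lay lower in every captured library without passing the test (log2 fold change -0.91, SE 0.39, adjusted p = 0.135). Of 75 mitochondrial ribosomal proteins, which serve the separate ribosome of that organelle, 40 fell and none rose (10.5% and 11.4% of all genes did), with a median of -0.68. Mrpl12 fell from 206 to 62.0 RPKM (log2 fold change -1.46, adjusted p = 0.00115).

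Ribosome biogenesis factors, which make and process ribosomal RNA in the nucleolus, had 34 of 40 called lower, where 10.5% of all genes were, and a median of -1.17. Gnl3, nucleostemin, stood at 45.8 to 49.2 RPKM in the depleted and 8.34 to 17.0 in the captured libraries (log2 fold change -1.85, SE 0.17, adjusted p = 0.00138). Mybbp1a and Nolc1, both nucleolar, fell by 1.51 and 1.54 on the log2 scale. Elongation factors had 5 of 8 called lower (median -0.73), among them Eef1g, and initiation factors 17 lower and 2 higher of 31 (median -0.58), against 10.5% lower and 11.4% higher among all genes.

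In the list of growth control genes 2 of 19 were lower and 1 higher (median -0.34), near or under the 10.5% and 11.4% of all genes, so the count shows nothing particular about the list. Myc, the transcription factor that drives ribosome synthesis, stood at 234 and 309 RPKM in the CLP libraries, 188 and 177 in ChILP, 69.1 and 47.4 in the PD-1+ pair and 35.7 and 45.0 in the CCR6+ pair (log2 fold change -1.92, SE 0.15, adjusted p = 0.00115). Mxd1, an antagonist of MYC found in maturing cells, rose from 13.4 ± 7.19 to 58.9 ± 15.0 RPKM, a log2 fold change of 2.40 (SE 0.44, adjusted p = 0.00824). Trp53 fell (log2 fold change -1.02, adjusted p = 0.00266). Between ChILP and CLP, and between PD-1+ and CCR6+ cells, no gene of any of these lists was called. The lists were chosen with earlier results of these data known. The part of the erythroid and mature myeloid transcripts given above in these falls was not tested.

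**Figure D5:**
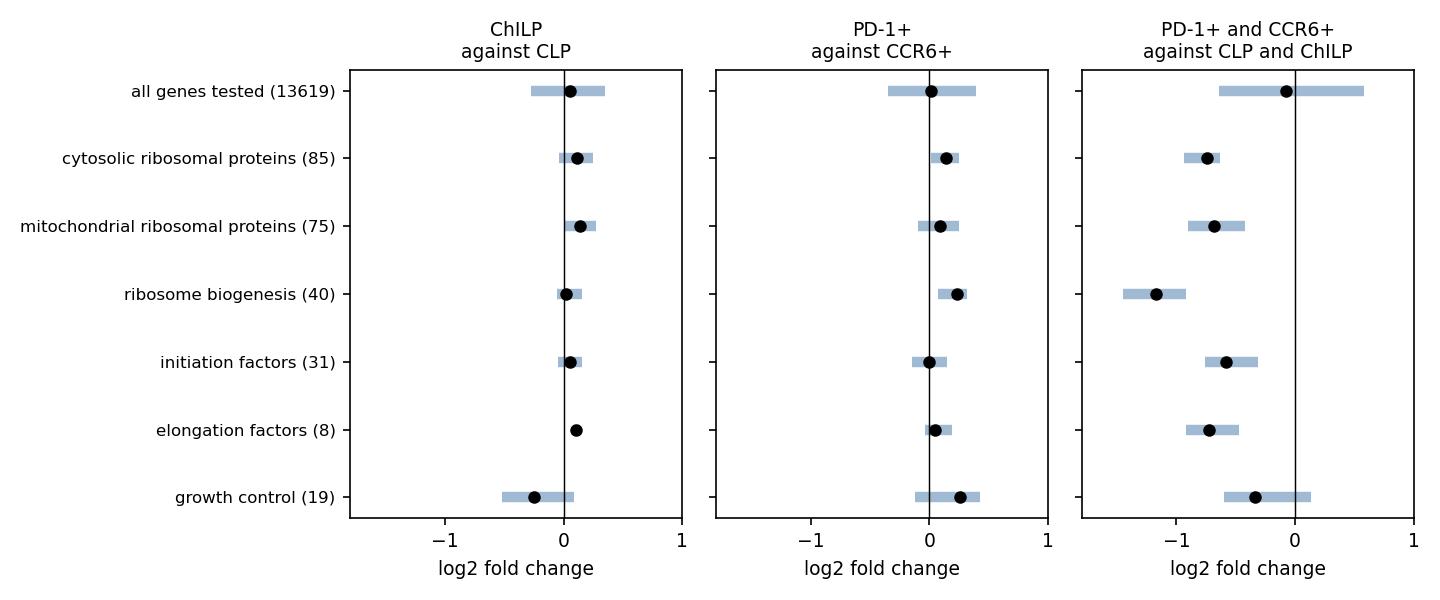
Median (points) and quartiles (bars) of the log2 fold change in each of the 3 comparisons for all genes tested, the cytosolic ribosomal proteins and 5 related lists, with the number of genes tested in brackets. In the first and second comparisons the medians lie between -0.25 and 0.26, and in the third those of the ribosomal and translation lists lie between -0.58 and -1.17 while that of all genes is -0.08.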

How the data were processed

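Polyadenylated RNA of sorted cells was sequenced after Smart-seq2 library preparation with reads of 50 bp, per the labels' protocols. Build mm9, Bowtie2 2.2.2 and CASAVA 1.8.4 are named in the submitters' processing notes. The sources used here give no read counter, strand setting or rule for reads with several matches. The authors deposited, for each library, a read count and an RPKM value for 29257 RefSeq transcripts. Smart-seq2 reads without molecular identifiers are not independent molecules.

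Counts were tested with edgeR 4.0.16 (R 4.3.3; TMM scaling; genes kept by filterByExpr at a minimum count of 10; two-sided quasi-likelihood F test, robust) on all 8 libraries and 4 groups in 1 fit, with Benjamini-Hochberg adjustment over the 13619 genes tested and calls at an adjusted p under 0.05. There were 4 residual degrees of freedom, and the common biological coefficient of variation came to 0.526. SE is the absolute log2 fold change over the root of F. Levels are means and SD of deposited RPKM. No coordinates of the files are given.

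Named members were the stalk genes and Rpsa, paralogue pairs, the 5 highest and 5 lowest, those called, and up to 6 per comparison and direction with the largest non-overlapping changes at 10 RPKM or more. Up to 3 genes per related list were named. Others named for their relative levels or for shared words were chosen after their values were seen. Members and lists were chosen with earlier results of these data known. Alternatives were DESeq2 1.42.0, limma 3.58.1, other scalings, filters, transcripts and left-out libraries. Restricting the third comparison to 1 population at a time, and TMM scaling without these genes and the marker genes, were chosen after seeing the data. Some genes that the rule names are not reported here.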

Additional observations from a re-analysis of the deposited data

Results flagged for a closer look

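Signal stood in rows that the comparisons do not use. Rpl34-ps1, left out by its symbol although RefSeq lists it as protein coding, had a mean of 291.1 RPKM over the 8 libraries, and its reads equalled those of 1 transcript of Rpl34 (NM_001005859) in 4 of 8 libraries and differed by at most 6 reads in the others. Rplp2-ps1 had a mean of 441.5 RPKM and equalled Rplp2 in 0 of 8 libraries. RefSeq places neither at the locus of its parent gene. Groups of 2 libraries allow no test of a single library.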

How the results depend on the processing

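In the first and second comparisons 0 ribosomal protein genes were called under every edgeR, DESeq2 and limma alternative run, and leaving out single libraries gave medians of -0.09 to 0.29 and of -0.02 to 0.30. In the third, limma on log2(RPKM + 1) and on log2(RPKM + 0.1) called 71 of 84 each (70 lower, 1 higher), the latter with a median of -1.01. Over all 12232 genes they called 4355 and 4194. DESeq2's Wald test called 46 of 85 (45 lower, 1 higher) and 3897 of all 13619 genes. The higher gene was Rps27 each time. Scaling by the ribosomal protein genes left 1 call (Rps27, higher) and a median of -0.01. That scaling centres them by construction and moved the median of all genes to 0.64, and it turned the sign of called genes, among them Rplp0 (0.09), Rplp1 (0.00), Rpl7 (0.01), Rpl36al (0.10), Rps14 (0.15), Rps9 (0.32), Rpl32 (0.04), Rpl13a (0.06), Rpl26 (0.05), Rpl34 (0.09), Rps19 (0.14), Rps26 (0.06), Rps3 (0.06) and Rps7 (0.05). All 42 called genes were lower under every other alternative. Leaving out single libraries gave 14 to 39 calls, and against ChILP alone, against CLP alone, for PD-1+ alone and for CCR6+ alone 20, 17, 12 and 22 calls, with fewer libraries compared each time. Summing all transcripts of a symbol moved the share of reads to 1.55%, 1.59%, 0.863% and 0.744% in CLP, ChILP, PD-1+ and CCR6+ cells. Replicate differences correlated weakly between groups (-0.0853 to 0.0851), with positive values only between CLP and ChILP and between PD-1+ and CCR6+. This cannot show whether libraries with the same replicate number share mice or a day. In replicate 1 of CLP and ChILP the mature neutrophil and monocyte markers summed to 5267 and 6759 RPKM. In replicate 2 they summed to 1186 and 1505 RPKM. The order was the other way in PD-1+ and CCR6+, at 16230 and 22060 in replicate 1 and 32890 and 35520 in replicate 2. A replicate block gave 31 calls in the third comparison, with 2545 over all genes, and 0 in the others. Depth limits the 29 genes under 10 RPKM, whose SE reached 1 or more in several.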
